A study of Mus musculus with 2 samples.

Results

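The chemokine ligand genes were described here in macrophages grown from mouse bone marrow of the strain C57BL/6J. Members were the genes whose symbol starts with Ccl or Cxcl followed by a number and at most 1 letter, together with Cx3cl1, Xcl1, Pf4 and Ppbp. The rule found 40 genes among 55536 annotated genes, 23 of the CC class, 15 of the CXC class including Pf4 and Ppbp, and Xcl1 and Cx3cl1. Both libraries of polyadenylated RNA came from 1 group of primary cells that received Lipid A, the Tlr4-binding part of lipopolysaccharide, at 100 ng/mL for 12 h, were kept without it for 12 h, and received 100 ng/mL again for 30 min. The treatment field of the same labels names lipoprotein A instead, and the labels do not resolve this. Sex and age were not collected. The 2 biological replicates carry 1 donor identifier, and nothing in the labels ties either to an animal of its own. No library from cells without Lipid A was analysed here, so the values are levels after the second exposure and not responses to it. Each difference below sets 1 library against 1, and no test was possible.

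Chemokines are small secreted proteins that guide leukocytes along concentration gradients by binding receptors coupled to G proteins. The CC and CXC classes are named for the spacing of their first cysteines. In macrophages, Toll-like receptor signals switch on many of these genes through NF-kB, and interferon signals switch on Cxcl9, Cxcl10 and Cxcl11. The messages of several, Cxcl1 and Cxcl2 among them, carry AU-rich elements that mark them for rapid decay.

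Promoter stretches of 6 genes are shown because they belong to the 2 genes that differed most between the libraries (Cxcl1 and Cxcl2), to a related neighbour that was almost silent (Cxcl3), to the most abundant CXC gene (Cxcl10), to an abundant CC gene (Ccl3) and to the gene most clearly lower in replicate 2 (Pf4). Each holds 220 bases that end just before the first annotated start, read 5′ to 3′ on the strand of the gene from RefSeq sequence of GRCm38.p6 (mm10). They lie at chr5:90891021-90891240 (plus strand), chr5:90903651-90903870 (plus), chr5:90785881-90786100 (plus), chr5:92348890-92349109 (minus), chr11:83649379-83649598 (minus) and chr5:90772215-90772434 (plus). Capitals mark matches to the motifs of NF-kB, the interferon-stimulated response element (ISRE), AP-1 (TGANTCA), the STAT motif GAS (TTCNNNGAA) and the TATA box (TATAAA), on either strand.
Cxcl1: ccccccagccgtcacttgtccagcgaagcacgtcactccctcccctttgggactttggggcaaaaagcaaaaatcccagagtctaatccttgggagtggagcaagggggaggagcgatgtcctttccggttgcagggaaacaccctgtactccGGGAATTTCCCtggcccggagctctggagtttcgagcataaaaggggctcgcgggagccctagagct
Cxcl2: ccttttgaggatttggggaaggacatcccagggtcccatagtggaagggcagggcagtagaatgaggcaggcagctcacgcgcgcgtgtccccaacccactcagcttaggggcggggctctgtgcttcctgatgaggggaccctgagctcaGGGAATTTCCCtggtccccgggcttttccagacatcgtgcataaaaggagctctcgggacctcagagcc
Cxcl3: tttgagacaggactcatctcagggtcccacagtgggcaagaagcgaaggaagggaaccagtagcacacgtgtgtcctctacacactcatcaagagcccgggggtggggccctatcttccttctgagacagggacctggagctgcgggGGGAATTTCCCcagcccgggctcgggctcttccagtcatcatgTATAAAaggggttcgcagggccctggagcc
Cxcl10: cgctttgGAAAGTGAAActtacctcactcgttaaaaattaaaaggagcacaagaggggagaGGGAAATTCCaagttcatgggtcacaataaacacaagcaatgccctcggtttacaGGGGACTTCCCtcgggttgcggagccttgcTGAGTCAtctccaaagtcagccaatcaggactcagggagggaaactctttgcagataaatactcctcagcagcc
Ccl3: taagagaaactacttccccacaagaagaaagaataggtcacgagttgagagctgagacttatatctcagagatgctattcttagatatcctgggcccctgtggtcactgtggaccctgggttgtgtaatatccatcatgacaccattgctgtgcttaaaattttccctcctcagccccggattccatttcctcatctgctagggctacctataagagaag
Pf4: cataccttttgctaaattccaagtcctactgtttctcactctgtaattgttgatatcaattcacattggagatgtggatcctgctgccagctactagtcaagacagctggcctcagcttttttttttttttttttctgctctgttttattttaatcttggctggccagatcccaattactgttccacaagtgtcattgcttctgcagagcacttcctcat
Cxcl1, Cxcl2 and Cxcl3 carried the same 11 letters, GGGAATTTCCC, in which a pair of NF-kB matches overlap. The run began 71 bases before the RefSeq start in Cxcl1, 97 in Cxcl2 and 73 in Cxcl3. These distances depend on the start used, since the GENCODE start lies 4 bases before the RefSeq start in Cxcl1 and 28 in Cxcl2. Cxcl10 held an ISRE match, 2 separate runs of NF-kB matches and an AP-1 match. The stretches of Ccl3 and Pf4 held no match to these letters.

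Of the 40 ligand genes, 22 were detected, defined as a TPM (the level of a message corrected for its length and for the depth of the library) of at least 1 in both libraries. Across all protein-coding genes 48.7% met the same rule. The detected genes were 13 of 23 CC and 9 of 15 CXC members, and 12 members reached 100 TPM in both libraries, where the share of all protein-coding genes was 5.56%. Ligand transcripts took 2.04% of protein-coding TPM in replicate 1 and 2.43% in replicate 2, or 2.23 ± 0.276% (SD, n = 2). In counts the share was 0.507% and 0.582%, since TPM gives short messages more weight. Depth was 41938439 counts on genes in replicate 1 and 30780685 in replicate 2. All 9 listed macrophage markers were detected, with a summed level of 16917 and 18807 TPM. The higher sum in replicate 2 came from Lyz2 and Cd14, and the other 7 markers were lower there, with a median log2 ratio of -0.24 over all 9. Markers of other cells are given beside the results they touch or in the closing observations.

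**Figure D1:**
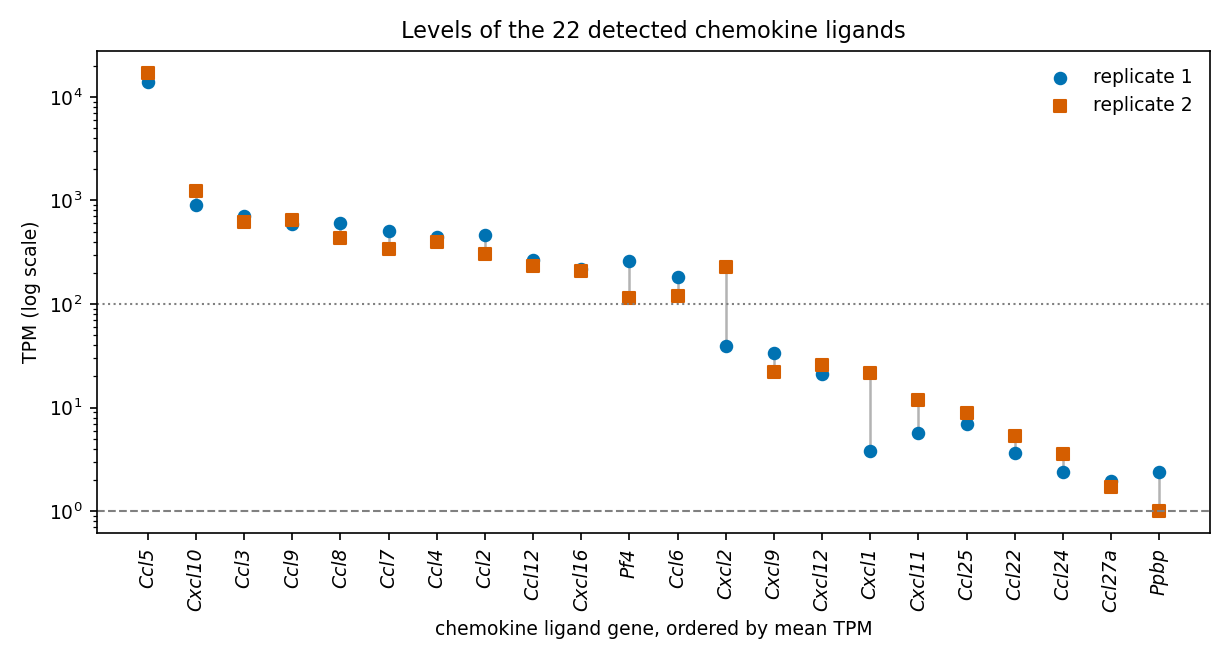
Level of each detected chemokine ligand in TPM (log scale) in replicate 1 (circles) and replicate 2 (squares), joined by a line, in order of mean TPM. The dashed and dotted lines mark 1 and 100 TPM. Ccl5 (13896 and 17093 TPM) stands far above Cxcl10 (902 and 1239 TPM), and the symbols lie far apart for Cxcl2 (39.7 and 230.15 TPM) and Cxcl1 (3.85 and 21.8 TPM).

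Ccl5 (ENSMUSG00000035042.2, chr11:83525778-83530518, mm10), which attracts monocytes and T cells, dominated the family. It stood at 13896 TPM in replicate 1 and 17093 TPM in replicate 2, and it ranked 6 and 4 among all protein-coding genes. It held 72.5% and 77.4% of all ligand TPM. In counts, which give short messages less weight, its part was smaller. Ccl5 held 103280 of 206207 ligand counts in replicate 1 and 90665 of 168202 in replicate 2. Without it the family took 0.5598% and 0.5478% of protein-coding TPM, so the higher share in replicate 2 was that of Ccl5. In scaled counts, the log2 ratio of replicate 2 over replicate 1 was 0.27 for Ccl5 (exact 95% interval 0.25 to 0.28, which as in all such intervals here covers counting error only).

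The other members of the block that holds Ccl5 were abundant. Ccl3 stood at 705 and 613 TPM and Ccl4 at 439 and 397 TPM in replicates 1 and 2. Both genes encode macrophage inflammatory proteins. Ccl9, a ligand of Ccr1, stood at 588 and 643 TPM. Ccl6, another ligand of Ccr1 found in rodents, was lower in replicate 2, at 181 and 121 TPM. The log2 ratios were -0.19 for Ccl3, -0.15 for Ccl4, 0.08 for Ccl9 and -0.55 for Ccl6 (-0.61 to -0.48). These 4 genes and Ccl5 form a block of 5 on chromosome 11 (83525778 to 83664683), all detected, that held 82.5% and 85.5% of ligand TPM.

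The detected genes of the neighbouring block were all lower in replicate 2. This block on chromosome 11 (82035571 to 82305690) holds 6 members, 4 of them detected, and 53.8% of all genes averaging 20 counts or more were lower in replicate 2. Ccl2, the main ligand of Ccr2, stood at 468 and 303 TPM. Ccl7 and Ccl12, also ligands of Ccr2, stood at 512.5 and 341 TPM and at 267 and 232 TPM. Ccl8, a ligand of Ccr8 in mice, stood at 601 and 435 TPM. The log2 ratios were -0.61 for Ccl2 (-0.67 to -0.55), -0.57 for Ccl7 (-0.63 to -0.52), -0.51 for Ccl8 (-0.59 to -0.43) and -0.24 for Ccl12 (-0.34 to -0.13). Each interval was entirely negative, while each ratio lay inside the range that held the central 95% of all genes, -0.63 to 0.90. The silent members of this block were Ccl11, with 2 and 4 counts, and Ccl1, with 0 and 1.

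The neutrophil-attracting genes Cxcl1 and Cxcl2, which signal through Cxcr2, showed the widest gap of any detected member. Cxcl2 (chr5:90903871-90905938) held 994 counts in replicate 1 and 4315 in replicate 2, at 39.7 and 230.15 TPM. Cxcl1 (chr5:90891241-90893115) held 77 and 347 counts, at 3.85 and 21.8 TPM. Their log2 ratios were almost equal, 2.57 for Cxcl2 (2.47 to 2.67) and 2.62 for Cxcl1 (2.27 to 3.001), or 5.94-fold and 6.13-fold. Both lay at percentile 99.9 of the ratios of all 12471 genes with at least 20 counts in each library. Cxcl5 and Cxcl3, further ligands of Cxcr2, lie in the same block on chromosome 5 (90759360 to 90905938) and were low. Cxcl5 stood at 0.79 and 0.95 TPM and Cxcl3 at 0.14 and 0.45 TPM, on 3 and 7 counts. Cxcl3 shares the capital run printed above, and any bearing of that run on the levels was not tested.

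Pf4 and Ppbp, named for platelets and situated between Cxcl5 and Cxcl3, were both lower in replicate 2. Pf4, or platelet factor 4, stood at 259 TPM in replicate 1 and 115 TPM in replicate 2, on 2312 and 727 counts. Its log2 ratio was -1.22 (-1.34 to -1.09), at percentile 0.217 of all genes. Ppbp, the precursor of a ligand of Cxcr2, stood at 2.37 and 1.00 TPM, on 54 and 17 counts, with a log2 ratio of -1.19 (-2.09 to -0.41). Of 9 listed megakaryocyte and platelet markers only Vwf, which endothelium also expresses, was detected, at 2.88 and 9.00 TPM. The list summed to 4.69 and 10.2 TPM, a difference that came from Vwf. Itga2b, the other marker with enough counts to compare, was lower in replicate 2, like Pf4 and Ppbp, on 47 and 17 counts, with a log2 ratio of -0.996 (-1.91 to -0.19). Gp9 had 2 counts in replicate 1 and 0 in replicate 2, and all markers of the list other than Vwf were under 1 TPM. The part of such cells in the Pf4 and Ppbp values was not tested.

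The interferon-linked ligands of Cxcr3 differed between the libraries in both directions. Cxcl10 (chr5:92346638-92348889) was the second most abundant ligand, at 902 and 1239 TPM, with a log2 ratio of 0.49 (0.46 to 0.52). Cxcl9 was lower in replicate 2, at 33.8 and 21.9 TPM, with a ratio of -0.57 (-0.67 to -0.47). Cxcl11, annotated in GENCODE as a polymorphic pseudogene, stood at 5.66 and 11.8 TPM, with a ratio of 1.17 (0.93 to 1.40). These 3 genes lie side by side on chromosome 5 (92321347 to 92365485).

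Cxcl16, a membrane-anchored ligand of Cxcr6 that also takes up oxidised lipoprotein, stood at 218 and 209 TPM, with a log2 ratio of -0.03 (-0.07 to 0.02). Cxcl12, the ligand of Cxcr4 that stromal cells of the marrow make, stood at 20.99 and 25.86 TPM, with a ratio of 0.34 (0.21 to 0.46). All 7 stromal markers were detected too, with a sum of 573 and 650 TPM. All 7 were higher in replicate 2, with a median ratio of 0.27, where 46.2% of all genes averaging 20 counts or more were higher. The intervals of Lum (-0.04 to 0.23) and Pdgfra (-0.08 to 0.29) included no difference. The part of stromal cells in the Cxcl12 level was not tested. In bulk RNA, fewer cells of a type and less RNA per cell cannot be told apart.

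Among the low members, Ccl22, a ligand of Ccr4, stood at 3.67 and 5.37 TPM, and Ccl24, a ligand of Ccr3, at 2.38 and 3.55 TPM. The log2 ratio was 0.60 (0.32 to 0.88) for Ccl22 and 0.13 (-0.71 to 0.95) for Ccl24, the latter on 30 and 24 counts. Ccl25, a ligand of Ccr9, stood at 7.03 and 8.95 TPM on 140 and 94 counts. Its ratio in scaled counts was -0.12 (-0.51 to 0.27), opposite in sign to the TPM difference. Ccl27a, a ligand of Ccr10, stood at 1.95 and 1.72 TPM on 13 and 6 counts. The last 2 are uncertain. Ccl25 overlaps Elavl1 on the opposite strand (44.2 and 41.6 TPM), and Ccl27a overlaps Il11ra1 (38.7 and 27.1 TPM) and has a near copy, Ccl27b. Whether the counting used strand is not stated by the labels or file headers. Cxcl16 likewise overlaps Zmynd15, at 7.05 and 6.10 TPM.

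The 18 members below the detection rule fell into 3 kinds. Cxcl14, Cx3cl1 and Cxcl5 had at least 20 counts in each library, and Cxcl14 came closest, at 0.99 and 1.49 TPM on 43 and 49 counts. Cx3cl1, the membrane-bound fractalkine, stood at 0.90 and 0.64 TPM. Another 8 (Xcl1, Cxcl3, Cxcl15, Cxcl13, Ccl17, Ccl11, Ccl1 and Ccl28) had 13 counts or fewer in each library. The last 7, Ccl19, Ccl20, Ccl21a, Ccl21b, Ccl26, Ccl27b and Cxcl17, had 0 counts in both, which allows up to 3 counts, or 0.0715 CPM (counts scaled to a common library depth) in replicate 1 and 0.0975 in replicate 2. Ccl19 and Ccl21a guide lymphocytes and dendritic cells into lymph nodes, and Ccl20 is the ligand of Ccr6. Ccl21a and Ccl21b are near copies, so a read from either could not be placed with certainty.

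In the order of levels, 8 of the 21 neighbouring pairs of detected members had ranges that did not overlap. These placed Ccl5 above Cxcl10 and Cxcl10 above Ccl3, then Ccl2 above Ccl12, Ccl12 above Cxcl16, Cxcl2 above Cxcl9, Ccl25 above Ccl22, Ccl22 above Ccl24 and Ccl24 above Ccl27a. From Ccl3 down through Ccl9, Ccl8, Ccl7 and Ccl4 to Ccl2, each gene overlapped the next. The order of Pf4, Ccl6 and Cxcl2 depended on the library, with Pf4 highest in replicate 1 and Cxcl2 in replicate 2.

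**Figure D2:**
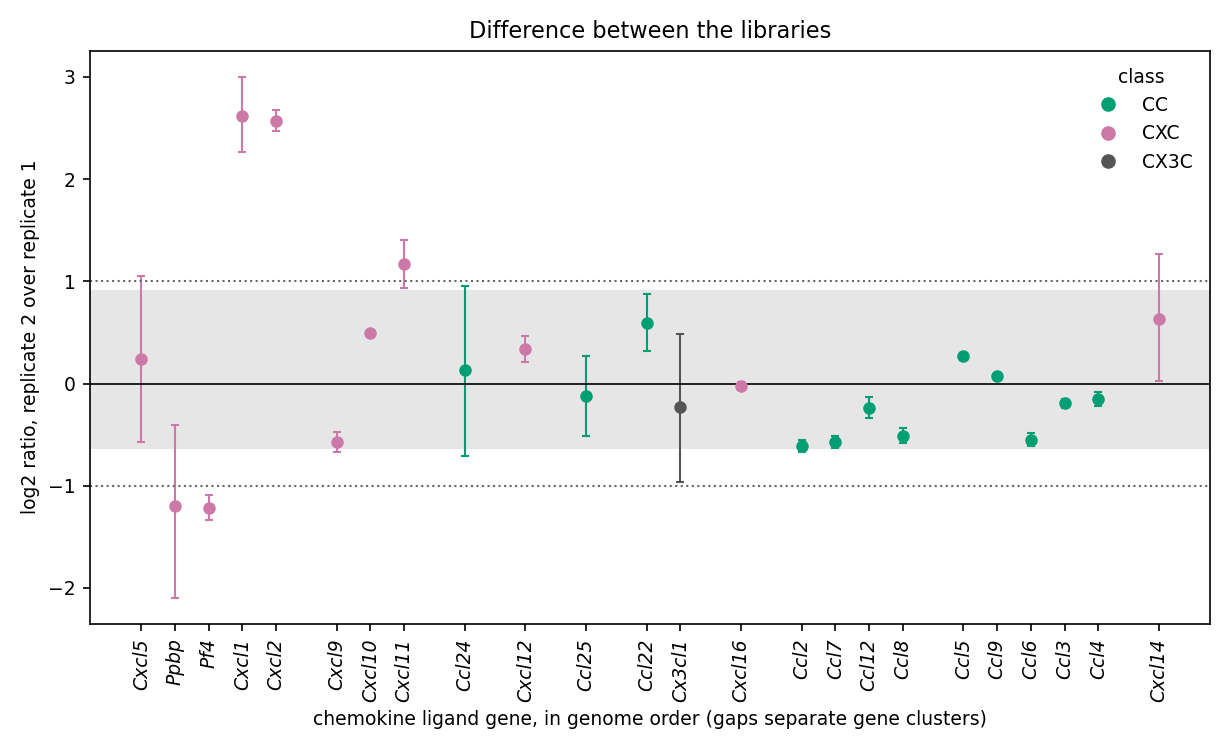
Log2 ratio of scaled counts, replicate 2 over replicate 1, for the 24 members with a mean of at least 20 counts, in genome order with gaps between gene blocks. Bars are exact 95% intervals for counting error, the grey band holds the central 95% of all genes, and dotted lines mark 2-fold. Cxcl1 and Cxcl2 lie far above the band, Pf4 and Ppbp below it, and Ccl2, Ccl7, Ccl12 and Ccl8 lie below 0 within it.

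Over the whole family members differed in both directions. Among the 24 members averaging 20 counts or more, 11 were higher and 13 lower in replicate 2, close to the 46.2% of all such genes that were higher, and the median log2 ratio was -0.07, beside -0.03 over all 12804 genes passing that filter. Among CC members 4 were higher and 8 lower (median -0.17), and among CXC members 7 were higher and 4 lower (median 0.34). Of 23 members with at least 20 counts in each library, 3 were at least 2-fold higher in replicate 2 (Cxcl1, Cxcl2 and Cxcl11), where 1.94% of all genes were. Only Pf4 was at least 2-fold lower, where 0.521% of all genes were. The other 19 were within 2-fold. Ppbp, with 17 counts in replicate 2, was not counted. Without a minimum count, 8 members were 2-fold higher and 4 lower, the added ones on few counts. Neutrophil markers summed to 75.3 and 9.88 TPM, with 2 of 9 detected. Endothelial markers summed to 11.8 and 24.9 TPM, with 2 of 5 detected. The higher endothelial sum in replicate 2 came from Kdr, at 5.57 and 20.8 TPM. Pecam1 and Cdh5, the other endothelial markers with enough counts to compare, were lower in replicate 2. Their log2 ratios were -0.48 (-0.73 to -0.23) for Pecam1 and -0.54 (-1.12 to 0.01) for Cdh5, whose interval included no difference. The part of neutrophils and endothelial cells in the ratios of the ligands was not tested.

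Promoter sequences matched 26 of the 40 members in the RefSeq table, 15 of them detected, each with 250 bases before and 50 after the start. Those not matched were Ccl2, Ccl4, Ccl5, Ccl7, Ccl11, Ccl19, Ccl21a, Ccl21b, Ccl24, Ccl26, Cxcl5, Cxcl11, Cxcl16 and Cxcl17. NF-kB matches occurred in 7 of the 26 promoters, where 8.78% of 20554 promoters of the same length held one. They were in 4 of the 15 detected members (Cxcl1, Cxcl2, Cxcl10 and Ccl9) and in 3 of 11 members below the detection rule (Cxcl3, Ccl1 and Ccl20). ISRE matches occurred in Cxcl10 and Cxcl14 (3.39% of all promoters), and AP-1 matches in 6 members (7.40%). The AP-1 matches were in 4 detected members (Ppbp, Cxcl9, Cxcl10 and Ccl9) and in 2 below the detection rule (Ccl27b and Ccl28). Those of Cxcl9 and Ccl28 lay after the start. TATA matches occurred in 9 members (13.2%) and GAS matches in 2 (8.06%). A match is a run of letters in this window and says nothing of binding in these cells.

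**Figure D3:**
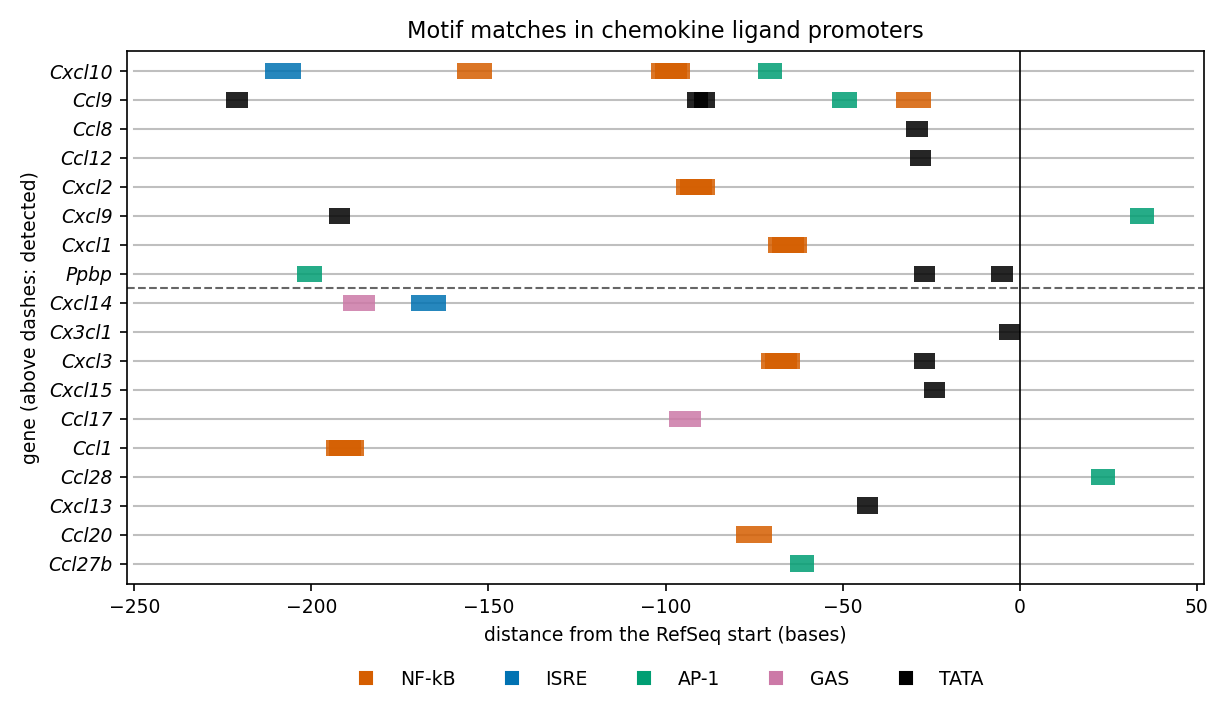
Matches to 5 motifs along the promoter windows of the chemokine ligands that held at least 1, by distance in bases from the RefSeq start (0). Detected genes stand above the dashed line in order of level. NF-kB matches begin 71 bases before the start in Cxcl1, 97 in Cxcl2, 73 in Cxcl3 and 159 and 104 in Cxcl10. The GENCODE start of Cxcl2 lies 28 bases before its RefSeq start.

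At the other end of the message, Cxcl1 and Cxcl2 also shared a feature that no other detected member had. Their 3′ untranslated regions were the only ones among the 22 detected members to hold the AU-rich nonamer TTATTTATT. That is 9.09% of the detected members, close to the 6.85% of 10467 detected protein-coding genes that held it. This search was chosen after the ratios of Cxcl1 and Cxcl2 were seen, and any bearing on those ratios was not tested. Cxcl2 carried 4 copies and 11 ATTTA pentamers in 734 bases, and Cxcl1 carried 2 copies and 7 pentamers in 592 bases. The first site of each (chromosome 5, from GENCODE M21 transcripts, 25 bases, nonamer in capitals) is shown to let the flanks be compared.
Cxcl1: ttatgtatTTATTTATTccacaaag
Cxcl2: gagttcacTTATTTATTtatctatg
ATTTA occurred at least once in 17 of the 22 (65.7% of all detected genes), with a median of 2.36 per kilobase beside 1.25. At least 3 copies occurred in 36.4% of the detected members and in 33.3% of all detected genes. Ccl3 and Ccl12 had 5 each in 409 and 167 bases. Ccl5 and Ccl8, with 199 and 165 bases, had none.

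Several ligand genes divided their TPM among annotated transcripts. For Ccl9, a 398-base processed transcript, Ccl9-202, took 53.2% and 56.6% of TPM but only 5.54% and 5.71% of counts. The coding transcript Ccl9-201, of 3006 bases, stood at 275 and 279 TPM, so the level of Ccl9 above depends on how the short transcript is weighed. For Cxcl16, the transcript Cxcl16-202, annotated for nonsense-mediated decay, took 45.3% and 45.1% of TPM but 25.5% and 25.4% of counts. The coding Cxcl16-201 stood at 117 and 109 TPM, with 73.6% and 72.4% of counts. Cxcl12 was mainly Cxcl12-202 (78.5% in each library), with Cxcl12-203 at 19.8% and 18.8%. Ccl5 was almost wholly its coding transcript, with retained-intron Ccl5-202 at 0.102% and 0.314%.

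Retained-intron transcripts of Cxcl2 took 8.99% of its TPM in replicate 1 and 12.8% in replicate 2, on 145 and 710 counts (7.67% and 11.0% in the FASTQ-derived table). For Cxcl1, which did not reach 10 TPM in both libraries, the share was 3.64% and 8.86%, on 6 and 65 counts. In the FASTQ-derived table the Cxcl1 share was 8.48% and 10.4%, a smaller gap. Of 9 members at 10 TPM or more with such an annotated transcript, 7 had a higher share in replicate 2, where 54.9% of all such genes did, and 6 of the 9 did so by the FASTQ-derived values, where 59.9% of all such genes did. Pf4 is among the 7 on 6 and 8 counts, and the FASTQ-derived table lists it at 0.

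**Figure D4:**
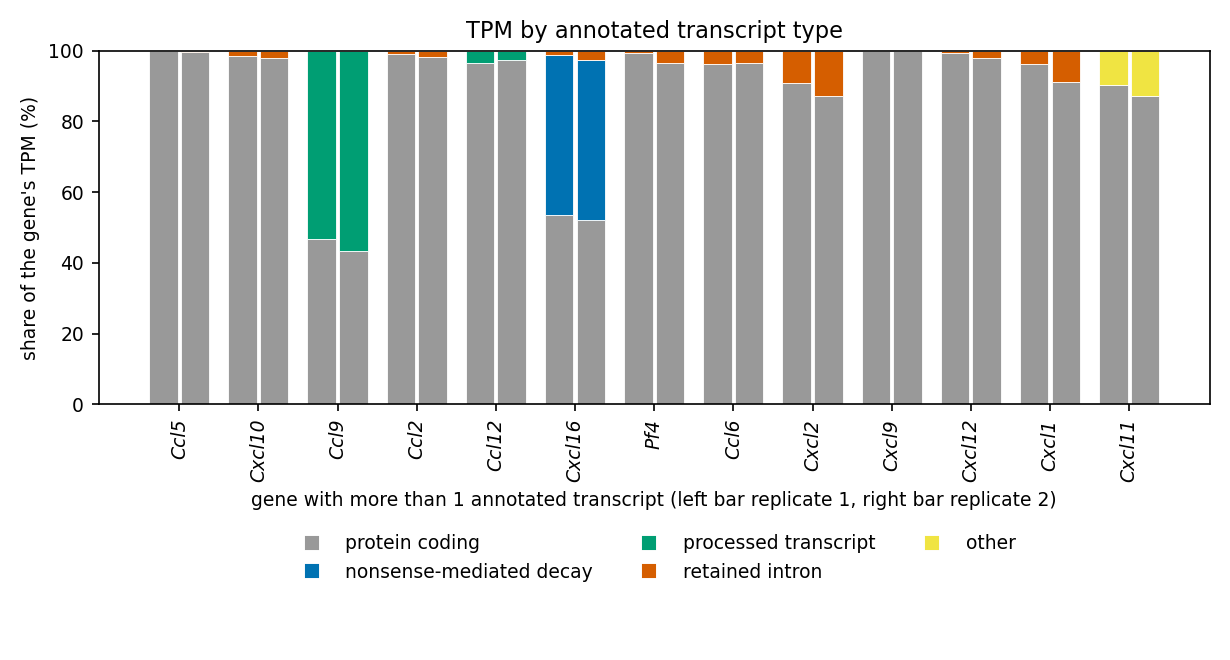
Share of each gene's TPM (%) by annotated transcript type for detected members with more than 1 annotated transcript and at least 10 TPM in both libraries, and for Cxcl1 and Cxcl11, with replicate 1 left and replicate 2 right. Ccl9 and Cxcl16 give about as much TPM to a transcript of another type as to the coding one, and the retained-intron part is widest for Cxcl2 (8.99% and 12.8%).

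Taken as a sum, the receptors of these ligands were far lower, at 172 and 295 TPM beside 19163.5 and 22076 TPM for the ligands. Most of the ligand sum was Ccl5. Of 23 listed receptors 8 were detected (48.7% of all protein-coding genes) and none reached 100 TPM in both libraries (5.56%). Ccrl2, an atypical receptor that does not signal through G proteins, was highest, at 98.4 and 231 TPM, above detected ligands such as Cxcl9. Its log2 ratio was 1.39, and it was the only 1 of 10 counted receptors to differ 2-fold. Among all genes 1.94% were at least 2-fold higher in replicate 2. The higher receptor sum in replicate 2 came from Ccrl2. Of 11 receptors averaging 20 counts or more, 5 were higher and 6 lower there, where 46.2% of all such genes were higher. Ccr1, a receptor of Ccl3, Ccl5, Ccl6 and Ccl9, stood at 17.03 and 12.97 TPM. Cxcr2, the receptor of Cxcl1 and Cxcl2, had 2 counts in replicate 1 and 0 in replicate 2.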

How the data were processed

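Polyadenylated RNA of both libraries was sequenced, starting from 1 µg and sized at 250 to 400 per the labels. The authors deposited expected counts and TPM per gene and transcript, made from transcriptome alignments to mm10 with GENCODE M21, and estimated counts and TPM per transcript made from FASTQ files, per the file headers and deposited notes. The quantification tools, their versions and the strand setting are not stated there. The gene table was the main one. Expected counts were rounded. Spike-in entries (97) stayed out, of which phiX174 took 0.0526% and 0.0667% of counts, as did 26248 numeric entries with 0 counts.

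Levels are deposited TPM. Ratios are replicate 2 over replicate 1 on TMM-scaled counts plus 0.5 (edgeR 4.0.16, R 4.3.3), with exact Clopper-Pearson intervals at 95% (scipy 1.17.1). Intervals and the 3-count limit cover counting error only, since reads can be copies of 1 molecule. Alternatives were DESeq2 1.42.0 size factors, total counts, other filters, a pseudocount of 5, other detection limits and the FASTQ-derived table. Steps were checked on simulated data. Blocks are members within 500000 bases of each other. Promoters were matched by symbol, using the RefSeq start nearest to the GENCODE start of the gene. The AU-rich search and its letters were chosen after the values were seen. For each gene, 3′ regions came from its most abundant coding transcript. Named were all detected members, others with 20 counts in a library, and the 3 highest genes of the receptor and enzyme lists, of which 1 receptor is not reported here. Other names were chosen after their values were seen. Planned protein motifs were not analysed here. Members and lists were chosen with earlier results of these data known. If the replicates were not separate cultures, their spread may be technical.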

Additional observations from a re-analysis of the deposited data

How the results depend on the processing

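The number of detected ligands was 25 at 0.5 TPM, 17 at 5 TPM and 21 in the FASTQ-derived table, and 22 to 23 with either library left out. The ligands' share of protein-coding TPM was 2.03% in the FASTQ-derived table and 2.04 to 2.43% with either library left out, but 0.544% of expected counts and 0.554% without Ccl5, an alternative chosen after seeing the data. The counts of 3 ligands at least 2-fold higher and 1 lower in replicate 2 held under DESeq2 size factors, total counts, a pseudocount of 5 and FASTQ-derived counts. They became 2 and 1 at a filter of 100 counts, and 8 and 4 with no filter, which admits genes with very few counts. The median log2 ratio stayed between -0.12 and -0.03. No ratio of the 24 counted members changed sign under the other scalings, the other pseudocount or FASTQ-derived counts, and with FASTQ-derived counts 3 lay outside their counting interval. FASTQ-derived TPM differed from the main level by more than the SD between the libraries for 9 of 24. Ratios between the libraries could not be recomputed with a library left out. No paired analysis was possible because there is 1 group. Low members such as Ccl27a, Cxcl3 and Xcl1 rest on too few counts for a difference to be detectable.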

Other observations

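Enzymes that cut or trim chemokines were present beside the ligands. Of 12 listed, 8 were detected, where 48.7% of all protein-coding genes were. Mmp14, a membrane-bound metalloproteinase, stood at 279 and 239 TPM in replicates 1 and 2. Adam17 and Adam10, which release Cxcl16 and Cx3cl1 from the cell surface, stood at 59.7 and 58.5 TPM and at 44.8 and 38.3 TPM. None of the 9 with at least 20 counts in each library differed 2-fold. Among all such genes 1.94% were 2-fold higher in replicate 2 and 0.521% lower. Dpp4, which trims the amino end of several chemokines, stood at 0.19 and 0.28 TPM.

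The 2 deposited quantifications placed detected ligands close to each other. Mean TPM in the alignment-derived table ranged from 0.954 times (Ccl24) to 1.37 times (Ccl27a) that in the FASTQ-derived table. The median log2 difference was 0.25 over the detected ligands and 0.18 over 10709 protein-coding genes. Ccl5 stood at 10612 and 12169 TPM in the FASTQ-derived table, against 13896 and 17093 TPM.

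Some markers of other cells were expressed where their lists were otherwise near 0. Cd4, listed for T cells, stood at 58.2 and 37.7 TPM, while the other 5 T cell markers had 3 counts or fewer in each library. Klrk1 stood at 7.45 and 4.13 TPM, while the other 4 NK cell markers had 4 counts or fewer. Xcl1, a ligand that T and NK cells make, had 5 and 0 counts. Of 7 listed dendritic cell markers only Ccr7 was detected, at 2.61 and 2.41 TPM, and the list summed to 3.47 and 3.66 TPM. Of the 2 averaging 20 counts or more, 1 was higher and 1 lower in replicate 2.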
